A study of Mus musculus with 6 samples.

Results

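The plasma and coagulation proteins of the hepatoblast were examined as a list of 42 genes whose products carry, clot or protect in plasma. Of these 42 genes, 39 were measured by a probe set annotated to that gene alone, out of 18193 genes measured in the series. Each gene was represented by its probe set with the highest mean signal over 6 arrays. Trf, Gc and C3 had no probe set that met this rule and were not analysed here. C5 appears in the annotation under its synonym Hc. The list's name holds for 37 of the 39 genes; Ahcy and Amacr encode intracellular enzymes and are described apart.

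The arrays hold RNA of fetal liver (FL) cells taken at E14.5, 1 liver for each array, with 3 livers of Pogz-/- and 3 of Pogz+/+ embryos. Both genotypes were on a congenic C57BL/6 background, and each liver was minced and strained to a suspension of all its cells without a sort. The Pogz-/- embryos lack, in every tissue, the exons at the 3′ end of Pogz that encode the CENPB and DDE domains and part of the zinc fingers. Pogz encodes a zinc finger protein, and the comparison asks which genes respond to its loss in FL cells. Because the deletion is constitutive, hepatoblasts and blood cells alike carry it.

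Hepatoblasts are the fetal precursors of hepatocytes and bile duct cells. They secrete most of the proteins of fetal plasma, and at midgestation they lie among a much larger mass of developing red cells, whose growth they support. Alpha-fetoprotein, transthyretin and albumin are made early, while several clotting factors and complement proteins reach high levels only later in liver maturation. In whole FL cells, fewer hepatoblasts and less RNA per hepatoblast cannot be told apart.

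All levels below are log2 probe set intensities, called log2 signal, and a difference of 1 is a factor of 2 in intensity. Probe sets differ in how well they bind, so levels are compared between arrays and not between genes. Fold changes are log2 values of Pogz-/- over Pogz+/+ with the standard error from limma, and a gene was called at an adjusted p under 0.05 over all 18193 genes. Pogz+/+ replicate 1 stood apart, with r of 0.794 to 0.810 against the other arrays where all other pairs had 0.884 to 0.906. The 3′ to 5′ signal ratio for β-actin, a measure of shortened RNA or target, was 3.72 to 4.09 in Pogz-/-, against 52.3 in this Pogz+/+ array and 5.50 to 6.63 in the other Pogz+/+ arrays. The genotypes were therefore compared over 6 arrays and over the 5 arrays without that replicate. With or without it, the ratio of each Pogz+/+ array exceeded that of each Pogz-/- array, and the part of RNA quality in the results below was not tested. Pogz had 4 probe sets, none called over 6 arrays, and they do not check the genotype, since it could not be worked out whether they fall in the deleted stretch. The brightest had a log2 signal of 9.16, 9.22 and 9.33 in Pogz-/- and 9.17, 9.03 and 8.95 in Pogz+/+. The others were dimmer and differed in direction. One was higher in every Pogz-/- array (log2 fold change 2.05 over 5 arrays and 2.17 over 6), as was another (1.90 and 1.47). The last had -0.41 over 5 arrays and -0.59 over 6.

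Over 5 arrays, Afp and C5 fell in Pogz-/- FL cells and no listed gene rose. The intensity in Pogz-/- was 0.635 times that in Pogz+/+ for Afp and 0.366 times for C5. These 2 calls among 39 genes stand beside 2.07% of all genes called lower (376 genes) and 2.41% called higher (439 genes) in the same comparison. With each array centred on its median, Hp and F5 were called higher as well, where 1844 of all genes were. At an unadjusted p under 0.05, 9 listed genes were lower and 2 higher in Pogz-/-, where 9.67% of all genes were lower and 8.63% higher. Over all 6 arrays limma called 0 of the 39 genes in either direction, where 0.0220% of all genes were called lower and 0.0989% higher. At an unadjusted p under 0.05, 8 listed genes were lower and 0 higher over 6 arrays, where 10.6% of all genes were lower and 7.15% higher. The test named in the study's methods called 0 listed genes over 6 arrays and 0 over 5. Of all 18193 genes it called 0 lower in both comparisons, 1 higher over 6 arrays and 2 higher over 5.

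The median of the list lay lower than that of all genes in both comparisons, but not when Pogz-/- replicate 1 was left out of the 6 arrays. The median log2 fold change was -0.47 over 5 arrays and -0.36 over 6, beside -0.10 and -0.17 for all genes. With each array centred on its median it was -0.20 over 5 arrays, beside 0.18 for all genes, and it turned to 0.0998 over 6 arrays, beside 0.289. Over 6 arrays without Pogz-/- replicate 1 it was -0.12, beside -0.16 for all genes. Over 5 arrays, 28 of the 39 genes had a fold change below 0, as did 57.6% of all genes. With centring 22 of the 39 did, beside 38.0% of all genes, and over 6 arrays 29 did, beside 60.4%. Every Pogz-/- array was lower than every Pogz+/+ array for 12 of 39 genes over 5 arrays (30.8%, against 21.7% of all genes) and for 7 of 39 over 6 arrays (17.9%, against 16.3%). Every Pogz-/- array was higher for 2 genes over 5 arrays (5.13%, against 14.9% of all genes) and for 1 gene over 6 arrays (2.56%, against 10.8%). Of the 39 genes, 30 lay above the median signal of all probe sets, 4.91, and 9 lay below it, where arrays of the same genotype differ most. The plot of all genes by array shows both the width of the list and the overlap of the genotypes.

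**Figure D1:**
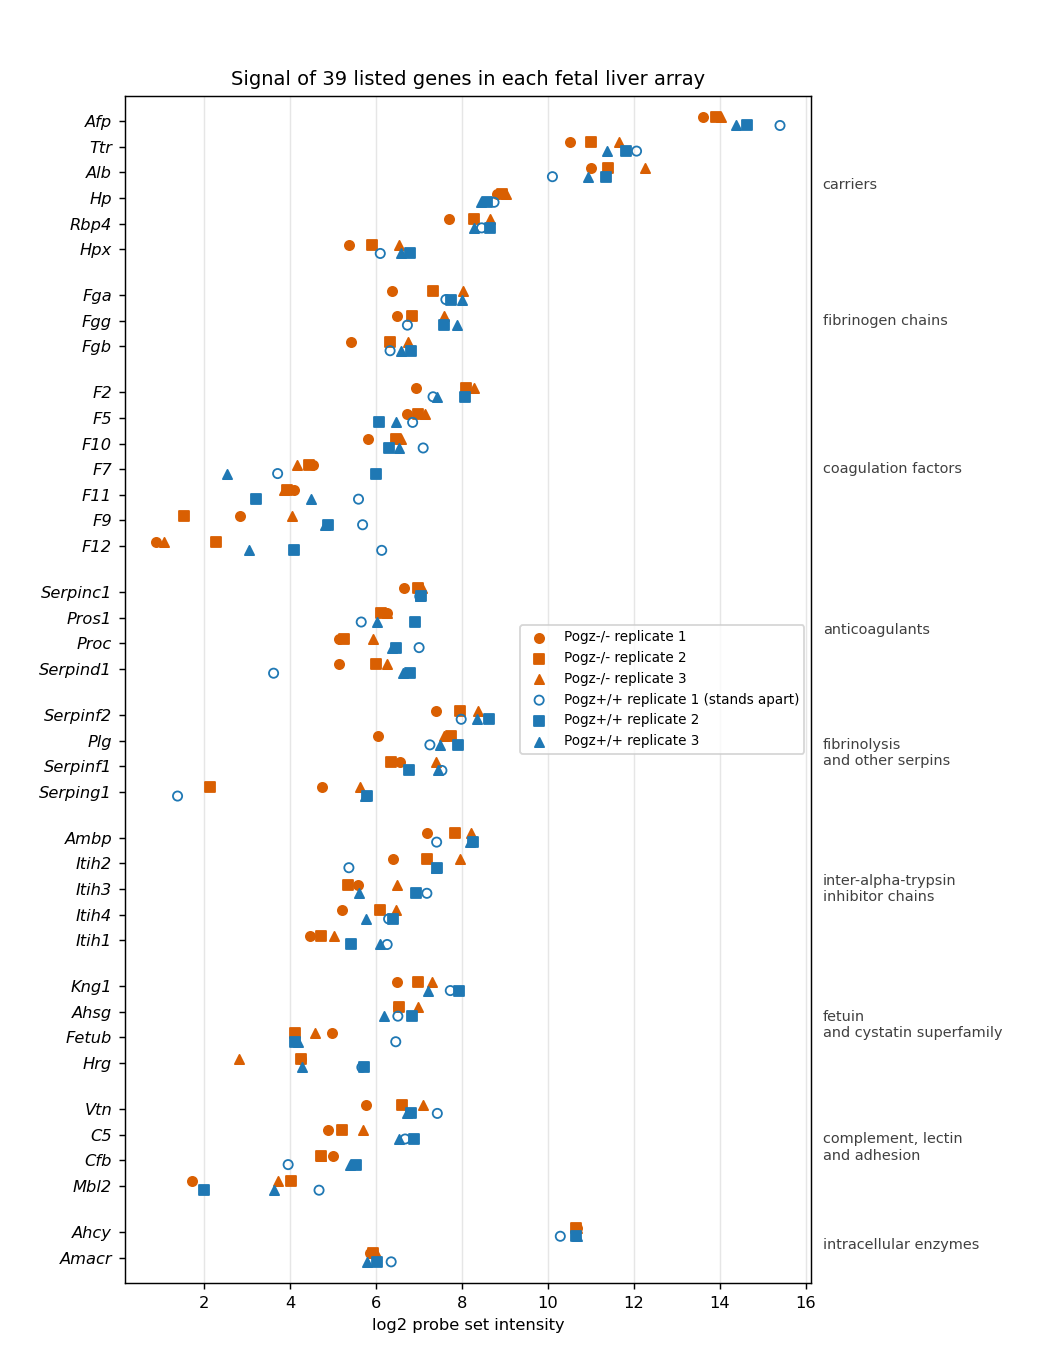
Log2 probe set intensity (x axis) of the 39 measured genes (rows, grouped by role) in each array, with Pogz-/- arrays in orange above Pogz+/+ arrays in blue and Pogz+/+ replicate 1 as an open circle. Mean signals run from 2.91 for F12 to 14.3 for Afp, and C5 and Afp are among the 7 genes whose orange points all lie left of all blue points.

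Among the carriers of plasma, Afp is the main fetal serum protein and a relative of albumin. Its log2 signal was 13.60, 13.92 and 14.02 in the 3 Pogz-/- arrays and 15.40, 14.63 and 14.37 in the 3 Pogz+/+ arrays. All Pogz-/- values lay below all Pogz+/+ values, and Pogz+/+ replicate 1 was the highest. Over 5 arrays Afp fell in Pogz-/- (log2 fold change -0.66 ± 0.11 SE, limma, adjusted p = 0.00879), and over 6 arrays the value was -0.96 ± 0.24 (adjusted p = 0.122). After quantile normalization of the 5 arrays Afp had a fold change of -0.35 and was not called (adjusted p = 0.290). Without Pogz+/+ replicate 2 or replicate 3 as well, the adjusted p was 0.144 and 0.0623.

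Afp had 5 probe sets of its own, which differed. The next brightest, almost at the same level, read 13.62, 13.59 and 14.08 in Pogz-/- and 14.33, 14.61 and 14.27 in Pogz+/+ (5 arrays, log2 fold change -0.67, limma over all probe sets, adjusted p = 0.0509). The third in brightness read 10.76, 11.39 and 12.09 in Pogz-/- and 10.30, 11.78 and 11.61 in Pogz+/+, so the genotypes overlapped there. Its log2 fold change was -0.28 over 5 arrays (adjusted p = 0.792) and 0.18 over 6. The other 2 were dim, with means of 2.46 and 5.60 in Pogz-/- and 3.35 and 6.22 in Pogz+/+, and were not called. Over all probe sets, the fall of Afp was called on 1 of its 5 probe sets, the brightest (adjusted p = 0.0128).

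Alb, the main carrier protein of plasma after birth and the neighbour of Afp on chromosome 5, was not called. Its log2 signal was 11, 11.40 and 12.26 in Pogz-/- and 10.11, 11.35 and 10.94 in Pogz+/+. The genotypes overlapped, with the highest value in Pogz-/- replicate 3 and the lowest in Pogz+/+ replicate 1. The log2 fold change was 0.41 ± 0.39 over 5 arrays (adjusted p = 0.654) and 0.75 ± 0.35 over 6 (adjusted p = 0.296). Within each array, the log2 signal of Alb minus that of Afp was -2.60, -2.52 and -1.76 in Pogz-/- and -5.29, -3.28 and -3.44 in Pogz+/+. All 3 Pogz-/- arrays thus lay above all 3 Pogz+/+ arrays, a pattern noticed after the values were seen and not tested.

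Ttr, which carries thyroid hormone and, with Rbp4, retinol, had a log2 signal of 10.52, 11.01 and 11.66 in Pogz-/- and 12.06, 11.82 and 11.38 in Pogz+/+. The genotypes overlapped through Pogz-/- replicate 3, and the log2 fold change was -0.53 ± 0.33 over 5 arrays (adjusted p = 0.464). Of its 3 other probe sets, 1 had a fold change of -0.58 and the remaining pair had -0.16 and -0.02, none of them called. Rbp4, the retinol carrier itself, averaged 8.21 ± 0.47 in Pogz-/- and 8.46 ± 0.19 in Pogz+/+ (SD over 3 arrays), and Hpx, which binds free heme, averaged 5.94 ± 0.59 in Pogz-/- and 6.49 ± 0.36 in Pogz+/+. Neither was called.

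Hp encodes haptoglobin, which binds free hemoglobin. It was the single listed gene whose Pogz-/- arrays were all higher than all 3 Pogz+/+ arrays, with a log2 signal of 8.81, 8.93 and 9.03 in Pogz-/- and 8.75, 8.58 and 8.45 in Pogz+/+. The spread within each genotype was small, yet Hp was not called over 5 arrays (log2 fold change 0.41 ± 0.13, adjusted p = 0.106) or over 6 (adjusted p = 0.314). Haptoglobin RNA is also made by developing granulocytes. Of 12 measured granulocyte markers, 4 rose over 5 arrays (3 after quantile normalization) and 1 rose over 6. The shares of all genes called higher were 2.41% and 0.0989%. In 8 of the 12 all Pogz-/- arrays lay above Pogz+/+ replicates 2 and 3, beside 14.9% of all genes. S100a8, the brightest of the 12, went the other way, with all Pogz-/- arrays below all 3 Pogz+/+ arrays. Its log2 fold change was -0.26 over 5 arrays, not called, and 0.07 after quantile normalization. The mean log2 signal of the 12 markers ranged over 10.7 to 10.8 in Pogz-/- and over 10.3 to 10.8 in Pogz+/+. Camp, an antimicrobial peptide of granules, rose by 1.09 ± 0.12 over 5 arrays (adjusted p = 0.000902) and was called over 6 arrays too (adjusted p = 0.0290). The part of granulocytes in the Hp values was not tested.

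**Figure D2:**
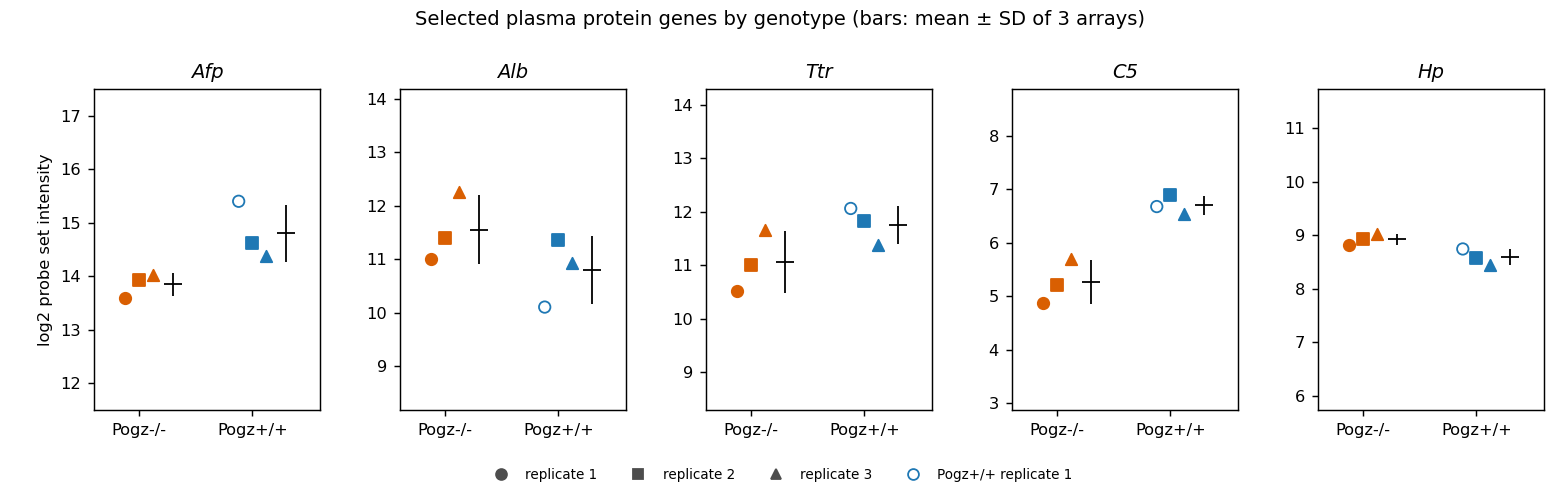
Log2 probe set intensity (y axis, each panel spanning 6 units) of Afp, Alb, Ttr, C5 and Hp in the 3 Pogz-/- arrays (orange) and the 3 Pogz+/+ arrays (blue, replicate 1 open), with the mean and SD of the 3 arrays beside the points. Afp and C5 are lower in every Pogz-/- array, Hp is higher in every Pogz-/- array, and Alb and Ttr overlap.

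C5 gave the largest called change. It encodes the complement component whose cleavage releases an anaphylatoxin and starts the membrane attack complex. Its log2 signal was 4.88, 5.22 and 5.70 in Pogz-/- and 6.68, 6.89 and 6.54 in Pogz+/+. No Pogz-/- array reached a Pogz+/+ array, and here Pogz+/+ replicate 1 lay between the other 2. C5 fell in Pogz-/- over 5 arrays (log2 fold change -1.45 ± 0.34, limma, adjusted p = 0.0335). Over 6 arrays the size was the same, -1.44 ± 0.34, and C5 had the lowest adjusted p of the list without being called (0.111). After quantile normalization of the 5 arrays C5 had a fold change of -1.35 and was still called (adjusted p = 0.0474). The call was lost on leaving out any 1 of the 5 arrays, with an adjusted p of 0.0616 to 0.236 and a fold change of -1.66 to -1.26.

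The other complement, lectin and adhesion genes were not called. Vtn encodes vitronectin, an adhesive protein that also restrains the membrane attack complex. It had a log2 signal of 5.76, 6.61 and 7.09 in Pogz-/- and 7.43, 6.81 and 6.72 in Pogz+/+, with overlap between genotypes (log2 fold change -0.28 ± 0.34 over 5 arrays, adjusted p = 0.716). Its other, dimmer probe set was lower in every Pogz-/- array, at 4.08, 5.14 and 5.06 against 5.63, 5.57 and 5.48 in Pogz+/+, and was not called either (log2 fold change over 5 arrays -0.77 ± 0.46, limma over all probe sets, adjusted p = 0.461). Cfb, a protease of the alternative pathway, had 4.99, 4.72 and 4.73 in Pogz-/- and 3.96, 5.54 and 5.39 in Pogz+/+. Pogz+/+ replicate 1 was the lowest array, and the log2 fold change was -0.65 ± 0.42 without it (adjusted p = 0.445) and -0.15 with it. Mbl2, a lectin that binds microbial sugars, was dim, at 1.72 to 4.03 in Pogz-/- and 2.00 to 4.67 in Pogz+/+.

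Of the 3 fibrinogen chains, which form the clot and lie side by side on chromosome 3, none was called. Fga had a log2 signal of 6.37, 7.32 and 8.03 in Pogz-/- and 7.63, 7.74 and 7.99 in Pogz+/+. Fgb had 5.41, 6.32 and 6.74 in Pogz-/- and 6.33, 6.82 and 6.59 in Pogz+/+, and Fgg had 6.48, 6.84 and 7.58 in Pogz-/- and 6.73, 7.59 and 7.89 in Pogz+/+. In all 3 genes Pogz-/- replicate 1 was the lowest array of the 6 and Pogz-/- replicate 3 lay within or near the Pogz+/+ range. The log2 fold changes over 5 arrays were -0.63 ± 0.38, -0.55 ± 0.35 and -0.77 ± 0.28 for Fga, Fgb and Fgg (adjusted p of 0.417, 0.448 and 0.169).

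The promoters of these genes are shown because Afp with Alb and the 3 fibrinogen genes are neighbours whose changes can be set side by side, and because C5 gave the largest called change. Each is a RefSeq window of GRCm38.p6 with 250 bases before the annotated start and 50 after it, given 5′ to 3′ on the gene's own strand. Capitals mark GTTAAT or its complement ATTAAC, the core site of the liver factor HNF1, and TTGCNNAA or its complement TTNNGCAA, a form of the C/EBP site.
Afp (chr5:90490464-90490763, plus strand): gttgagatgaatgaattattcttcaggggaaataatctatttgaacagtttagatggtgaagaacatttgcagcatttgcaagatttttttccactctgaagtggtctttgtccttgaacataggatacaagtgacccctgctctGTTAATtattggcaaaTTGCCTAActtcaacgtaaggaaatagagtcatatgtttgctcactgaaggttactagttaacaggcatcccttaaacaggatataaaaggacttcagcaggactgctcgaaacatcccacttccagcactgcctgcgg
Alb (chr5:90460620-90460919, plus strand): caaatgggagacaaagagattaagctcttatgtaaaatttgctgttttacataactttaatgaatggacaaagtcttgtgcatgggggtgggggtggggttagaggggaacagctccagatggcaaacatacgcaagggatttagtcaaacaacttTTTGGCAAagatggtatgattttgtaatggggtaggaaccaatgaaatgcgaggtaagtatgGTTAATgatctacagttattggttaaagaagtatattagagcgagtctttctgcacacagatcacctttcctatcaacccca
C5 (chr2:35061363-35061662, minus strand): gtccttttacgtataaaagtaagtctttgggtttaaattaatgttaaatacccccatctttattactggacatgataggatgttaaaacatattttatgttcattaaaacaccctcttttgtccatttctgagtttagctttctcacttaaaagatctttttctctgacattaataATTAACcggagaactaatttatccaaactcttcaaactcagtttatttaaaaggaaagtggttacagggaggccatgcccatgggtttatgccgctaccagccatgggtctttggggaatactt
Fga (chr3:83025903-83026202, plus strand): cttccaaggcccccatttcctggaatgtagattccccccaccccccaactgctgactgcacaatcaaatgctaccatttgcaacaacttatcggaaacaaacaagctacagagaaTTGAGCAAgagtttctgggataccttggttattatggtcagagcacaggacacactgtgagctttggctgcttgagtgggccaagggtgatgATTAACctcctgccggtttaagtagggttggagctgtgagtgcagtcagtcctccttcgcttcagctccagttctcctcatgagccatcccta
Fgb (chr3:83049814-83050113, minus strand): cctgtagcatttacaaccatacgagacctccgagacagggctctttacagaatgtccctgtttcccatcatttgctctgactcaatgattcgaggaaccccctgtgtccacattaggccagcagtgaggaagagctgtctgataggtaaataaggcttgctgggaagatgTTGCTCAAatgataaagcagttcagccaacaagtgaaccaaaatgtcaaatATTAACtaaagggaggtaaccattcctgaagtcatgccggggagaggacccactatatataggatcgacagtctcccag
Fgg (chr3:83007474-83007773, plus strand): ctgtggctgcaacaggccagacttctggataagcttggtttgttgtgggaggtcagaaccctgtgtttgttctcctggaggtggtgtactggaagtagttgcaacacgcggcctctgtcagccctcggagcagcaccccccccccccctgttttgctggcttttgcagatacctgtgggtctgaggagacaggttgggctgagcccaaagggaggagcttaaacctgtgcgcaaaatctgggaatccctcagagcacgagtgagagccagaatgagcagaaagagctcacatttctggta
The HNF1 core is in 5 of these 6 windows and the C/EBP form in 4, and neither is in the Fgg window. The marked matches do not overlap each other. Windows were found for 31 of the 39 genes, 33 in all because 2 genes have more than 1. The HNF1 core was in 8 of the 33 windows (24.2%, against 7.10% of 32851 mouse promoters), in Afp, Alb, C5, F2, Fga, Fgb, Itih1 and Vtn. The C/EBP form was in 12 (36.4%, against 10.8%). Another 3 motifs were searched on both strands: TATAAA was in 8 windows (24.2%, against 13.6%), CCAAT in 13 (39.4%, against 37.4%) and CAAAGTCCA, a form of the HNF4 site, in 0 (against 0.475%). These matches describe the letters of the windows and were not measured as sites. Alb and Afp share both marked motifs. The log2 fold change over 5 arrays was -0.66 ± 0.11 for Afp and 0.41 ± 0.39 for Alb, which was not called and overlapped between genotypes. The part of these motifs in the values was not tested.

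Of the 7 coagulation factors, none was called in either comparison. F2, prothrombin, was the brightest, with 6.92, 8.09 and 8.27 in Pogz-/- and 7.33, 8.07 and 7.41 in Pogz+/+. Its genotypes overlapped fully and the log2 fold change over 5 arrays was 0.02 ± 0.37 (adjusted p = 0.984). F5, the cofactor that speeds prothrombin cleavage, had 6.71, 6.98 and 7.14 in Pogz-/- and 6.85, 6.07 and 6.47 in Pogz+/+. Every Pogz-/- array was above Pogz+/+ replicates 2 and 3, and replicate 1 lay between the Pogz-/- values (log2 fold change over 5 arrays 0.67 ± 0.24, adjusted p = 0.158). A second probe set of F5, of similar signal, overlapped between genotypes, at 6.59, 7.24 and 7.15 in Pogz-/- and 6.22, 7.09 and 5.90 in Pogz+/+ (log2 fold change over 5 arrays 0.50, limma over all probe sets, adjusted p = 0.516). F10, the protease at the meeting point of the clotting pathways, averaged 6.28 ± 0.42 in Pogz-/- and 6.64 ± 0.41 in Pogz+/+ (SD over 3 arrays).

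The 4 other coagulation factors were dim. F9, the factor absent in hemophilia B, read 2.84, 1.53 and 4.05 in Pogz-/- and 5.69, 4.89 and 4.81 in Pogz+/+. F12, which starts the contact pathway, read 0.88, 2.27 and 1.06 in Pogz-/- and 6.13, 4.09 and 3.03 in Pogz+/+. Both were lower in every Pogz-/- array, with the largest fold changes of the list over 5 arrays, -2.04 ± 0.95 and -2.16 ± 1.03, and wide errors (adjusted p of 0.284 and 0.294). F7 and F11, proteases of the extrinsic and intrinsic pathways, spread less within Pogz-/- (4.16 to 4.52 and 3.85 to 4.10) than within Pogz+/+ (2.53 to 6.01 and 3.20 to 5.59).

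The anticoagulants were not called. Serpinc1 encodes antithrombin, the main inhibitor of thrombin. It was the steadiest in Pogz+/+, with a log2 signal of 6.64, 6.97 and 7.08 in Pogz-/- and 7.02, 7.05 and 7.03 in Pogz+/+ (log2 fold change over 5 arrays -0.14 ± 0.21, adjusted p = 0.777). Proc encodes protein C, which inactivates the cofactors of clotting. It had 5.13, 5.26 and 5.93 in Pogz-/- and 7.0, 6.46 and 6.37 in Pogz+/+, without overlap. Its log2 fold change was -0.97 ± 0.34 over 5 arrays (adjusted p = 0.146) and -1.17 ± 0.35 over 6 (adjusted p = 0.167).

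Serpind1, heparin cofactor II, depended on Pogz+/+ replicate 1. Its log2 signal was 5.14, 6.01 and 6.24 in Pogz-/- and 3.62, 6.80 and 6.62 in Pogz+/+, so the log2 fold change was -0.91 over 5 arrays and 0.12 over 6, called in neither. Serping1, the C1 inhibitor, and Itih2 were also lowest in that array, at 1.38 and 5.37, and their fold changes were -1.60 and -0.22 over 5 arrays and -0.14 and 0.46 over 6. Pros1, protein S, the cofactor of protein C, had 6.25, 6.10 and 6.26 in Pogz-/- and 5.66, 6.91 and 6.03 in Pogz+/+, with a log2 fold change of -0.26 over 5 arrays and 0.006 over 6.

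Genes of fibrinolysis and related serpins were likewise not called. Serpinf2 encodes α2-antiplasmin, which blocks plasmin. It had 7.40, 7.96 and 8.36 in Pogz-/- and 7.98, 8.62 and 8.35 in Pogz+/+, with a log2 fold change of -0.57 ± 0.24 over 5 arrays (adjusted p = 0.228). Plg, the plasmin precursor, had 6.05 in Pogz-/- replicate 1 and 7.74 and 7.59 in the other Pogz-/- arrays, against 7.25 to 7.92 in Pogz+/+. The low value of 1 embryo thus set most of its fold change of -0.58 ± 0.45. Serpinf1, an antiangiogenic serpin, averaged 6.76 ± 0.56 in Pogz-/- and 7.24 ± 0.42 in Pogz+/+ (SD over 3 arrays). Its other probe set was very dim and lower in every Pogz-/- array, at 0.87 to 1.68 against 2.90 to 3.52 in Pogz+/+, and was not called (adjusted p = 0.456 over 5 arrays).

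The inter-alpha-trypsin inhibitor family pairs a light chain, bikunin, made from Ambp, with heavy chains from the Itih genes, and stabilises hyaluronan matrix. Ambp had 7.20, 7.84 and 8.22 in Pogz-/- and 7.41, 8.27 and 8.18 in Pogz+/+ (log2 fold change over 5 arrays -0.47 ± 0.25, adjusted p = 0.340). Itih1 had 4.47, 4.73 and 5.01 in Pogz-/- and 6.26, 5.41 and 6.10 in Pogz+/+, without overlap (log2 fold change -1.02 ± 0.43, adjusted p = 0.242). Itih3 averaged 5.80 ± 0.60 in Pogz-/- and 6.57 ± 0.85 in Pogz+/+, and Itih4 averaged 5.92 ± 0.65 in Pogz-/- and 6.15 ± 0.35 in Pogz+/+ (SD over 3 arrays). All 5 genes had fold changes below 0 over 5 arrays, 3 of them with each array centred on its median, and none was called.

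The 4 listed genes of the fetuin and cystatin superfamily lie on chromosome 16. Kng1, the precursor of bradykinin, had 6.49, 6.97 and 7.29 in Pogz-/- and 7.73, 7.92 and 7.20 in Pogz+/+, overlapping in 1 array of each genotype (log2 fold change over 5 arrays -0.64 ± 0.27, adjusted p = 0.242). Its other probe set was lower in every Pogz-/- array, at 4.53 to 5.33 against 5.80 to 6.34 in Pogz+/+ (adjusted p = 0.185). Ahsg, fetuin-A, which keeps calcium phosphate in solution, averaged 6.67 ± 0.26 in Pogz-/- and 6.51 ± 0.32 in Pogz+/+ (SD over 3 arrays). Hrg, which binds heparin and plasminogen, was dim and lower in every Pogz-/- array, at 2.80 to 4.25 against 4.29 to 5.72 in Pogz+/+ (adjusted p = 0.419 over 5 arrays). Fetub, a fetuin that inhibits a protease of fertilization, was dim too, at 4.11 to 4.97 in Pogz-/- and 4.11 to 6.46 in Pogz+/+.

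The pair of intracellular enzymes was not called. Ahcy, which breaks down S-adenosylhomocysteine in most cell types, had 10.67, 10.65 and 10.67 in Pogz-/- and 10.29, 10.64 and 10.66 in Pogz+/+. Its log2 fold change over 5 arrays was 0.01 ± 0.09 (adjusted p = 0.969). Amacr, an enzyme of branched fatty acid and bile acid metabolism, had 0.02 ± 0.29 over 5 arrays (adjusted p = 0.984) and -0.13 ± 0.32 over 6.

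**Figure D3:**
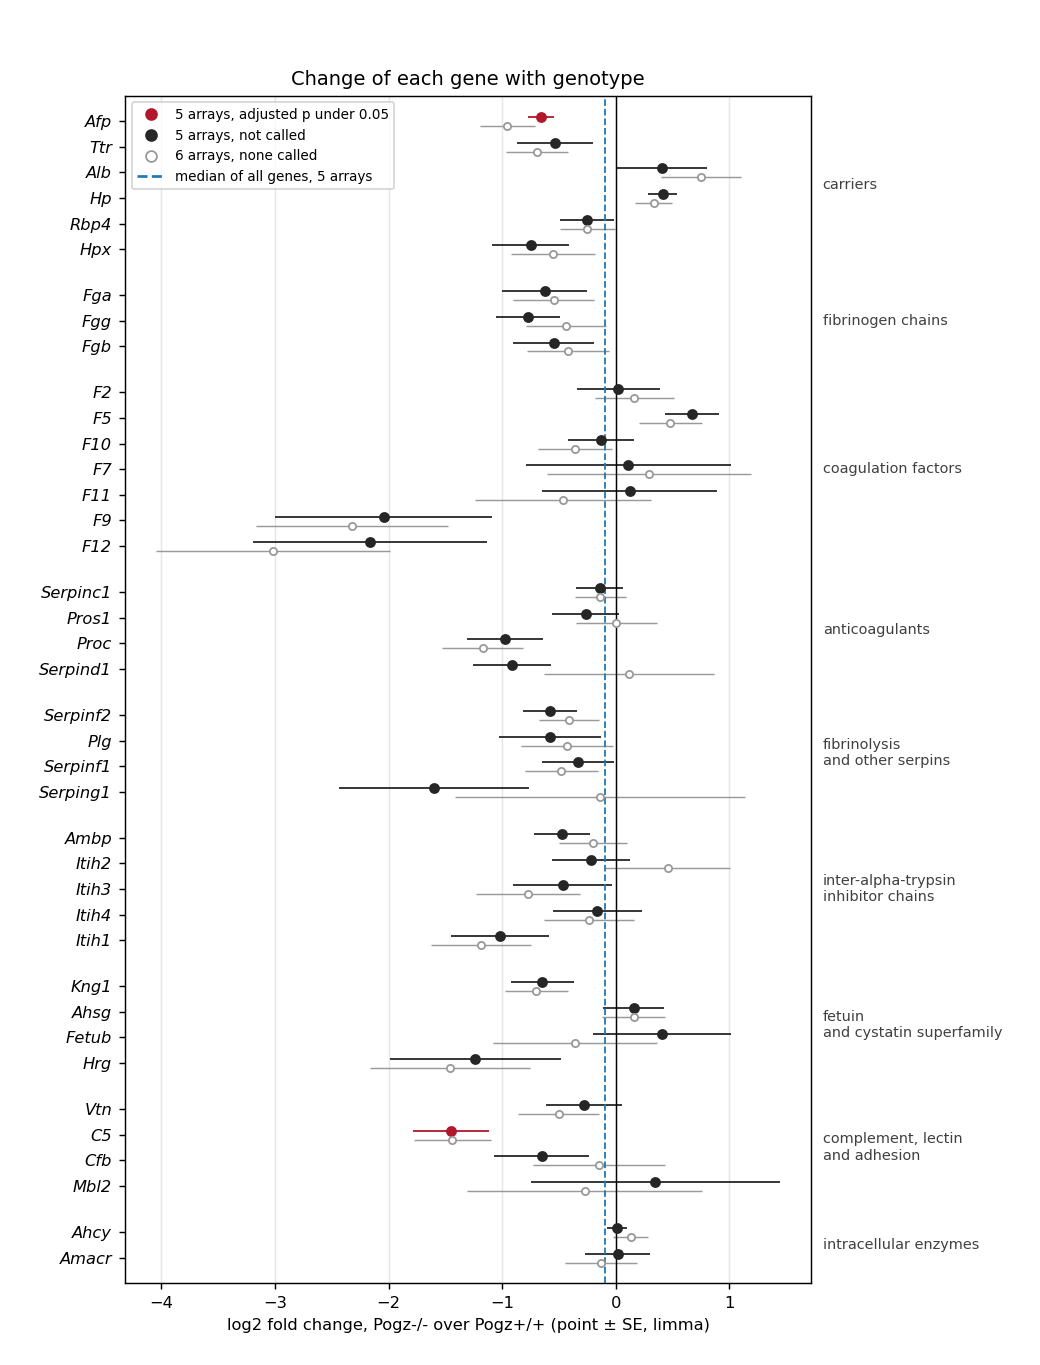
Log2 fold change of Pogz-/- over Pogz+/+ (x axis, point ± SE from limma) of the 39 genes, over 5 arrays (filled) and 6 arrays (open), with the median of all genes over 5 arrays, -0.10, as a dashed line. Afp and C5 are the called genes over 5 arrays, 28 filled points lie left of 0, and 7 genes (Fetub, F11, Pros1, Serpind1, Itih2, Mbl2 and Amacr) change sign between the comparisons.

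The embryos of the Pogz-/- genotype differed among themselves in this list. Set against the mean of Pogz+/+ replicates 2 and 3, the median difference of the 39 genes was -0.90 in Pogz-/- replicate 1, -0.38 in replicate 2 and 0.01 in replicate 3. For all genes the same medians were -0.07, -0.06 and -0.08. Pogz-/- replicate 1 was below both of those Pogz+/+ arrays for 29 of 39 genes (74.4%, against 41.7% of all genes), replicate 2 for 23 and replicate 3 for 12 (30.8%, against 42.5% of all genes). The lower median of the list in Pogz-/- was therefore carried by replicates 1 and 2. Without Pogz-/- replicate 1 the median over 5 arrays was -0.19, and without replicate 3 it was -0.65.

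**Figure D4:**
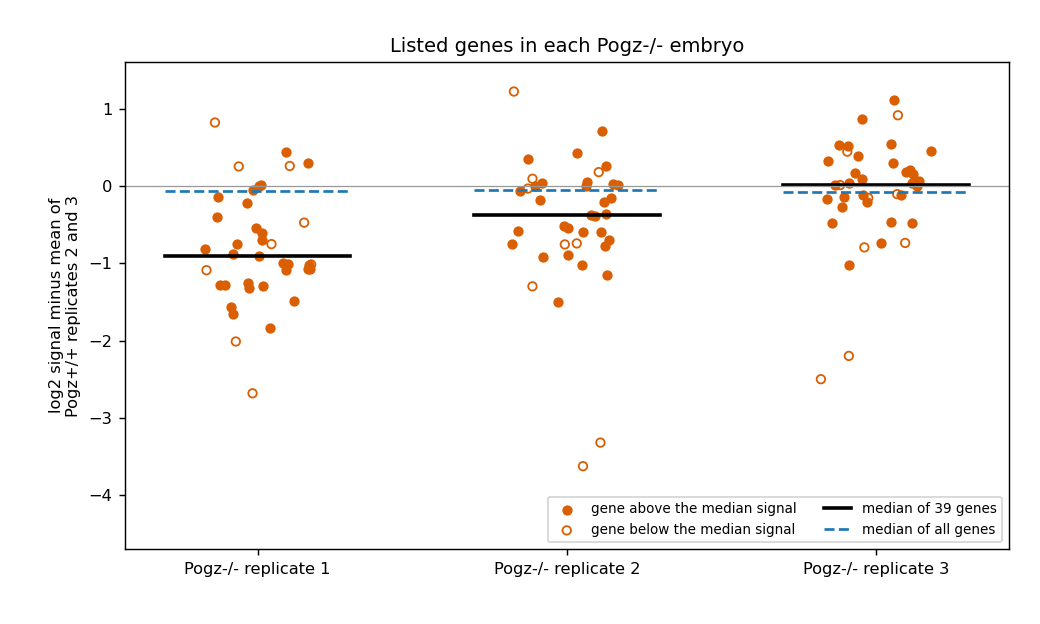
Log2 signal of each of the 39 genes in each Pogz-/- array minus the mean of Pogz+/+ replicates 2 and 3 (y axis), with filled points for genes above the median signal, open points for those below it, a black line for the median of the 39 genes and a dashed line for all genes. The black lines lie at -0.90, -0.38 and 0.01 while the dashed lines stay between -0.08 and -0.06.

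Within the Pogz-/- arrays, 25 of 39 listed genes (64.1%) had their lowest value in replicate 1 and their highest in replicate 3, beside 17.1% of all genes. These 25 genes are all among the 30 above the median signal. The median range across the 3 Pogz-/- arrays was 1.02 on the log2 scale for the list, against 0.58 for all genes, while Pogz+/+ replicates 2 and 3 differed by a median of 0.30 for the list and 0.35 for all genes. The 3′ to 5′ control ratios in Pogz-/- were close together, at 3.72 to 4.09 for β-actin and 4.87 to 5.08 for Gapdh. Xist, expressed from the inactive X chromosome of females, had a log2 signal of 12.8 and 12.9 in Pogz-/- replicates 1 and 2 and 6.85 in replicate 3, and 12.9 in Pogz+/+ replicate 3 and 7.10 and 4.81 in the other Pogz+/+ arrays. The part of embryo sex in the spread was not tested.

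Other genes of the hepatoblast were also lowest in Pogz-/- replicate 1 in most cases. The 25 measured hepatoblast markers outside the list included the regulator Hnf4a, the surface protein Dlk1 and the apolipoproteins Apoa1 and Apoa2. Limma called 0 of the 25 in either comparison. Of all genes, 2.07% were called lower and 2.41% higher over 5 arrays, and 0.0220% and 0.0989% over 6. At an unadjusted p under 0.05, 0 markers were lower and 1 higher over 5 arrays, and 1 lower and 1 higher over 6. The shares of all genes were 9.67% lower and 8.63% higher over 5 arrays, and 10.6% and 7.15% over 6. The median log2 fold change of the 25 markers was -0.46 over 5 arrays, beside -0.10 for all genes. It was below 0 for 22 of the 25, beside 57.6% of all genes. Every Pogz-/- array was below Pogz+/+ replicates 2 and 3 for 4 markers (16%, against 21.7% of all genes). Every Pogz-/- array was above them for Foxa3, Cebpa and Tat (12%, against 14.9%). Foxa3, which was dim, also lay above Pogz+/+ replicate 1 (log2 fold change 2.33 over 5 arrays, not called). The median difference of the 25 markers was -0.88, -0.17 and -0.07 in Pogz-/- replicates 1, 2 and 3. Within the Pogz-/- arrays, 16 of the 25 had their lowest value in replicate 1 (64%, against 35.1% of all genes), and 4 had their highest there. The lowest value was in replicate 1 and the highest in replicate 3 for 11 of the 25 (44%, against 17.1% of all genes). Apoa2 had 8.90, 9.54 and 10.27 in Pogz-/- and 9.59, 10.02 and 9.52 in Pogz+/+. Hnf4a had 5.48, 7.14 and 6.85 in Pogz-/- and 7.59, 7.26 and 6.31 in Pogz+/+. In both genes Pogz-/- replicate 1 was the lowest of the 6 arrays, and Hnf4a was highest within Pogz-/- in replicate 2.

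The order of embryos was not particular to hepatoblast genes. Of 8 megakaryocyte and platelet markers, 6 had the lowest Pogz-/- value in replicate 1 and the highest in replicate 3, and of 14 macrophage markers 7 did. The share of all genes was 17.1%. The median ranges across the Pogz-/- arrays were 0.38 and 0.62, beside 0.58 for all genes. The erythroid markers had 2 of 11 and a median range of 0.20, the granulocyte markers 2 of 12 and 0.23, and the endothelium and stroma markers 1 of 16 and 0.49. The part of these cells in the values of the list was not tested.

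Erythroid markers changed by like amounts in the 3 embryos. Of 11 measured erythroid markers, Alas2, Slc4a1, Klf1 and Tfrc fell over 5 arrays (log2 fold changes of -0.69 to -0.39), where 2.07% of all genes were called lower. Add2 went the other way, with every Pogz-/- array above every Pogz+/+ array (log2 fold change 0.36 over 5 arrays and 0.63 over 6, not called). After quantile normalization of the 5 arrays only Slc4a1 of these 4 was still called (log2 fold change -0.42, adjusted p = 0.00609), with -0.29, -0.17 and -0.18 for Alas2, Klf1 and Tfrc (adjusted p of 0.0921, 0.281 and 0.343). Over 6 arrays limma called 0 of the 11, beside 0.0220% of all genes lower and 0.0989% higher. At an unadjusted p under 0.05, 5 were lower and 1 higher over 6 arrays, where 10.6% and 7.15% of all genes were. The median difference of the 11 markers was -0.41, -0.30 and -0.32 in Pogz-/- replicates 1, 2 and 3, and their mean log2 signal ranged over 11.1 to 11.2 in Pogz-/- and over 11.5 to 11.7 in Pogz+/+. These means include Hba-a1, whose probe set was dim (mean 4.61, log2 fold change -1.72 over 5 arrays). Of the macrophage, the megakaryocyte and platelet, and the endothelium and stroma markers, limma called 0 of 14, 0 of 8 and 0 of 16 over 5 arrays (unadjusted p under 0.05 for 3 lower and 1 higher, 1 lower, and 1 lower). Of all genes over 5 arrays, 2.07% were called lower and 2.41% higher. At an unadjusted p under 0.05, 9.67% of all genes were lower and 8.63% higher.

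A further 72 genes of plasma, coagulation and complement were examined beside the list, of which 63 were measured. F13a1 and Igfbp1 rose over 5 arrays and 0 of the 63 fell, where 2.41% of all genes were called higher and 2.07% lower. At an unadjusted p under 0.05, 2 of the 63 were lower and 7 higher over 5 arrays, where 9.67% of all genes were lower and 8.63% higher. Over 6 arrays limma called 0, beside 0.0220% of all genes lower and 0.0989% higher. At an unadjusted p under 0.05, 3 were lower and 4 higher over 6 arrays, where 10.6% and 7.15% of all genes were. Igfbp1, a binding protein of insulin-like growth factors secreted by liver, had 8.98, 7.24 and 8.48 in Pogz-/- and 7.35, 6.29 and 6.47 in Pogz+/+ (log2 fold change over 5 arrays 1.85 ± 0.41, adjusted p = 0.0369). Pogz+/+ replicate 1 overlapped the lowest Pogz-/- value. F13a1, the clot-stabilising transglutaminase, which is made mainly by megakaryocytes and macrophages, had 9.85, 9.92 and 10.05 in Pogz-/- and 10.07, 9.45 and 9.45 in Pogz+/+ (0.49 ± 0.11, adjusted p = 0.0246). Both were still called after quantile normalization of the 5 arrays (adjusted p of 0.0349 for Igfbp1 and 0.0437 for F13a1). The median log2 fold change of the 63 genes was -0.35 over 5 arrays, beside -0.10 for all genes, and 30 of the 63 lay below the median signal of all probe sets. Their median difference was -0.60, -0.05 and 0.11 in Pogz-/- replicates 1, 2 and 3. Within the Pogz-/- arrays, 24 of the 63 had their lowest value in replicate 1 and their highest in replicate 3 (38.1%, against 17.1% of all genes).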

How the data were processed

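RNA of 6 livers at E14.5, 3 Pogz-/- and 3 Pogz+/+, was labelled from its 3′ end and hybridised to Affymetrix mouse arrays. The authors deposited intensity values from Affymetrix Expression Console, version and algorithm not given in the sources used here. The values are linear and share a 2% trimmed mean of 150, while array medians were 29.7 to 31.6 in Pogz-/- and 36.0 to 54.3 in Pogz+/+, so they were scaled but not quantile normalized.

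Log2 was taken with no pseudocount or filter, and 64 controls were left out. Of 45037 probe sets, 34945 name 1 gene in the platform annotation, 932 name several and 9160 are unnamed here; 18193 genes were represented by the probe set of highest mean. They were fitted in R 4.3.3 with limma 3.58.1 (lmFit with genotype as the only term, eBayes with trend and robust, two-sided p adjusted by Benjamini-Hochberg over 18193 genes), over 6 arrays and over 5 without Pogz+/+ replicate 1. The calculation was tested on simulated arrays in which each gene had the same spread in every array. They held no array like Pogz+/+ replicate 1 and no difference in RNA quality between genotypes, so they do not test how these affect the calls. The number of arrays limits the precision.

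The listed genes, the other lists and the tests were chosen with earlier results of these data known. Values in every array are given for Alb, Afp and Ttr, for called genes and for the brightest gene and that of largest moderated t in each role group; other genes printed by array, the non-overlapping and dim ones among them, were chosen after their values were seen. Alternatives were quantile normalization, centring on each array's median, leaving out dim probe sets, limma without trend and robust, a replicate block, other choices of probe set, the t-test of the study's methods and leaving out each array.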

Additional observations from a re-analysis of the deposited data

How the results depend on the processing

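Of the 39 listed genes, 2 were called lower over 5 arrays, where 376 of all genes were. After quantile normalization 1 listed gene was called lower (C5), beside 302 of all genes. With the mean of all probe sets of a gene 0 were, beside 69 of all genes. Limma without trend and robust and the methods' t-test called 0 listed genes and 0 of all genes lower. Leaving out a Pogz-/- array as well gave 1 listed gene each time. Of all genes, 404, 194 and 87 were called lower without replicates 1, 2 and 3. Afp was kept in 7 of 12 alternatives and C5 in 4, the methods' t-test not counted. These alternatives are not independent. For Afp the replicate block and leaving out Pogz-/- replicate 1 gave the same fold change, -0.53. Both genes lost the call with the methods' t-test. They also lost it without Pogz+/+ replicate 2 or replicate 3, which leaves 1 Pogz+/+ array. The cause of these losses was not tested, except that limma without trend and robust called 0 of all genes. Over 6 arrays 0 listed genes were called lower, beside 4 of all genes. Leaving out each array gave 0 to 2 listed genes, the 2 without Pogz+/+ replicate 1, where 376 of all genes were called lower. Genes called higher over 5 arrays numbered 0, and 2 (F5 and Hp) after median centring, which also turned the median log2 fold change over 6 arrays to 0.0998 and that of Fgg over 6 arrays to 0.0246. Median centring moves the median of all genes to 0.29 over 6 arrays and 0.18 over 5, where the list had -0.20, and it called 1844 genes higher and 100 lower over 5 arrays, against 439 and 376 uncentred and 377 and 302 after quantile normalization. Leaving out each array moved the list's median between -0.65 and -0.19 over 5 arrays and between -0.55 and -0.12 over 6, the last without Pogz-/- replicate 1. In some alternative the sign of the fold change turned for 21 of the 39 genes over 6 arrays and for 16 over 5.

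Same-numbered arrays of the genotypes did not deviate together over all genes (r of 0.004, -0.009 and -0.013). Pogz+/+ replicate 1, which stood apart, enters the mean from which each Pogz+/+ deviation was taken. These r values therefore cannot show whether the replicate numbers carry a pairing, and the main fits treated the arrays as unpaired. With the replicate block, 1 listed gene (Afp) was called lower over 5 arrays and 0 over 6, where 570 and 26 of all genes were. The list's median was then -0.19 and -0.36. Over 5 arrays this block sets Pogz-/- replicate 1, which has no partner, aside. Dim probe sets limit 9 listed genes, whose Pogz-/- arrays had a median range of 1.38.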
